A study of Mus musculus with 2 samples.

Results

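The 10 genes described here encode the 4 mammalian Notch receptors (Notch1, Notch2, Notch3 and Notch4), 4 of their ligands (Dll1, Dll4, Jag1 and Jag2) and a pair of transcription factors at the end of the pathway in gut epithelium (Hes1 and Atoh1). They were picked by symbol as genes of this pathway, and all 10 were found among the 43346 Ensembl genes of the deposited tables. Polyadenylated RNA was sequenced from sigmoid colon, a stretch of the large bowel just upstream of the rectum, taken from 1 female C57BL/6J mouse aged 10 weeks. The labels give 2 technical libraries of this 1 biological replicate, called library 1 and library 2 here after their technical replicate numbers, and library 2 dates from 2015, later than library 1. The mouse carried no named allele or treatment, and there was no second group, so no conditions were compared and no p-value is given. Each ± is an SD over n = 2 technical libraries, which covers differences between these libraries and not between mice.

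Notch signalling passes between touching cells. A Delta-like or Jagged ligand on 1 cell binds a Notch receptor on its neighbour, the receptor is cut by ADAM proteases and then by γ-secretase, and the freed intracellular part enters the nucleus, where it joins the DNA-binding protein RBPJ and switches on targets such as Hes1. In intestinal crypts Hes1 represses Atoh1, so that cells with active Notch become absorptive and cells that keep Atoh1 become secretory (goblet, enteroendocrine or tuft). Notch genes also work in other cells of the gut wall: Notch4 and Dll4 are best known from blood vessel endothelium, and Notch3 from the mural cells around vessels. The tissue here was not separated into cell types, and in such bulk RNA fewer cells of a type and less RNA per cell cannot be told apart.

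Library 1 held 25843064 expected counts (reads assigned to genes by a model that shares out ambiguous ones) and library 2 held 20681574. Genes of the mitochondrial chromosome differed in their share of counts, at 24.1% in library 1 (24.0 to 24.1% by the 95% Wilson method) and 5.59% in library 2 (5.58 to 5.60%). Levels are in TPM, the usual transcript measure, which correct for transcript length. Nuclear protein-coding genes held 31.3% of all TPM in library 1 against 75.3% in library 2, so levels are also given as nuclear TPM, rescaled to the usual TPM total over these 21461 genes alone. Where no read was counted, up to 3 counts remain possible, which is 0.116 CPM in library 1 and 0.145 CPM in library 2, CPM being counts relative to the library's total, and such intervals and floors cover counting error only. The labelled tissue was checked by markers. The 7 epithelial genes summed to 936 and 7520 TPM in libraries 1 and 2, with Krt8 at 60.68 and 2931 TPM, Krt19 at 33.74 and 2034 TPM and Epcam at 451 and 955 TPM, and 6 goblet cell genes such as Muc2 to 4631 and 28522 TPM, while the squamous keratin Krt5 had 0 and 5 counts and the small intestinal lactase Lct 0 and 3 counts. A list of 6 genes of neighbouring tissues (small intestine, pancreas, squamous epithelium) summed to 12.8 and 359 TPM. The pancreatic lipase Pnlip held most of it in library 1, at 7.21 and 15.19 TPM (225 and 285 counts). The pancreatic elastase gene Cela1 held most of it in library 2, at 5.0 and 337.66 TPM (110 and 4484 counts).

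The fate genes Hes1 and Atoh1 were the 2 most abundant of the 10 in both libraries, above every receptor and ligand. Hes1, the repressor that Notch signalling switches on (ENSMUSG00000022528.7, GRCm38 chromosome 16, 30064384 to 30067796, plus strand), was at 41.32 TPM in library 1 and 67.72 TPM in library 2 (54.5 ± 18.7). Atoh1, the activator that commits cells to secretory fates (ENSMUSG00000073043.4, chromosome 6, 64729125 to 64731245, plus strand), was at 12.31 and 61.25 TPM (36.8 ± 34.6). Both were therefore higher in library 2 by TPM. On the nuclear TPM scale Hes1 turned round, at 132 in library 1 and 89.9 in library 2, while Atoh1 kept its direction at 39.3 and 81.3. By TPM, Hes1 was 3.36 times Atoh1 in library 1 and 1.11 times in library 2, and such a ratio within a library does not depend on how libraries are scaled. Among nuclear protein-coding genes ordered from the highest TPM, Hes1 stood at 1564 and 1914 and Atoh1 at 4223 and 2123.

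Hes1 and its relatives bind DNA letters known as the class C site (CACGCG) and the N-box (CACNAG), so the stretch around the start of each member was searched for both on either strand. The RefSeq table (GRCm38.p6) held 10 windows of 250 bases before to 50 bases after a start site for 9 of the members, and Hes1 had no entry. CACGCG occurred in 6 of these 10 windows, against 9.27% of all 32851 windows of the same length in the table. The member windows were richer in G and C, at 55.7 to 86.0%, than the median of all windows, 52.7%, and the motif itself is GC-rich, so this share is not a like background. The Atoh1 window held 4 such matches, starting at -131, -95, -41 and 16, counted with the start site as base 1, and the Jag1 window held 2, at -249 and -171. These 2 windows are printed because only they held more than 1 class C match among the members; capitals mark the class C matches on either strand, and in Atoh1 also an N-box match on the reverse strand, which starts at 24. CACNAG matched in 6 of the 10 windows, against 42.5% of all windows. The 6 letters TGGGAA, the core of the site that RBPJ binds, occurred in 0 of the 10 windows, against 25.6% of all windows. The 3 motifs share no overlapping matches in the windows shown, and a match of letters is a description of the sequence, not of binding.
Atoh1 (plus strand, chr6:64728875-64729174): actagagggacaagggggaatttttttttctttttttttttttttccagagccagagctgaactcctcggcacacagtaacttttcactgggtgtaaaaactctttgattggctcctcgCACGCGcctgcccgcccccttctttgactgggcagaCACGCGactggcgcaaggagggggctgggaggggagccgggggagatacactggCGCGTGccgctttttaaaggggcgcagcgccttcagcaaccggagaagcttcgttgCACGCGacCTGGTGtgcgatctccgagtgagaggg
Jag1 (minus strand, chr2:137116471-137116770): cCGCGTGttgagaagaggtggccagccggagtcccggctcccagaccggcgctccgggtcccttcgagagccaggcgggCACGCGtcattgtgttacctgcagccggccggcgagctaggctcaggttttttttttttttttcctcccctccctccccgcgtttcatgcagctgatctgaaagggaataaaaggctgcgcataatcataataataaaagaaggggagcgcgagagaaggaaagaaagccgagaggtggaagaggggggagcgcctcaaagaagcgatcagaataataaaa

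The receptors were scarce by comparison. Notch1, a receptor of crypt epithelium and of many other cells (ENSMUSG00000026923.11, chromosome 2, 26457903 to 26516663, minus strand), was at 0.55 TPM in library 1 and 8.49 TPM in library 2 (4.52 ± 5.61). Notch2, which acts beside Notch1 in the crypt (ENSMUSG00000027878.10, chromosome 3, 98013527 to 98150361, plus strand), was at 1.54 and 5.99 TPM (3.77 ± 3.15). Notch3 (ENSMUSG00000038146.7, chromosome 17, 32120820 to 32166852, minus strand) was at 0.14 and 2.94 TPM (1.54 ± 1.98). Each of these 3 was higher in library 2 on this scale. Notch4 (ENSMUSG00000015468.10, chromosome 17, 34564268 to 34588503, plus strand) was at 0.25 and 3.47 TPM (1.86 ± 2.28). Summed, the 4 receptors reached 2.48 and 20.9 TPM, or 7.92 and 27.7 nuclear TPM. The counts behind these levels ran in library 1 from 27 for Notch3 to 382 for Notch2, and in library 2 from 254 for Notch4 to 1059 for Notch1.

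Which receptor led depended on the library and on the authors' estimate used. Notch2 made up 62.1% of the summed receptor TPM in library 1 and 28.7% in library 2. Notch1 made up 22.2 and 40.6%, and the ratio of Notch2 to Notch1 was 2.80 in library 1 and 0.706 in library 2. Notch3 and Notch4 had the smaller shares in both, at 5.65 and 14.1% for Notch3 and 10.1 and 16.6% for Notch4. By the authors' posterior mean TPM the mean share over both libraries was 61.1% for Notch1 and 15.1% for Notch2, in place of 31.4 and 45.4%. Notch4 then took 19.1%, above Notch2, in place of 13.3%. By expected counts the mean share was 31.7% for Notch1 and 51.0% for Notch2.

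Among the ligands, Jag1 led by TPM in library 1 and Dll1 in library 2. The lead in library 2 changed with the measure. By TPM from coding transcripts alone Dll4 led there, at 7.45 against 7.07 for Dll1 and 5.84 for Jag1. By expected counts Jag1 led there, with 472 against 382 for Dll4 and 368 for Dll1. In library 1 Jag1 led by each of these measures. Jag1, a Jagged ligand of vessel wall, stroma and epithelium (ENSMUSG00000027276.7, chromosome 2, 137081456 to 137116644, minus strand), was at 4.66 TPM in library 1 and 6.73 TPM in library 2 (5.70 ± 1.46), or 14.9 and 8.93 nuclear TPM. Dll1, a Delta-like ligand of secretory precursors in the crypt (ENSMUSG00000014773.9, chromosome 17, 15367354 to 15376872, minus strand), was at 3.12 and 9.78 TPM (6.45 ± 4.71). Dll1 held nearly the same share of the summed ligand TPM in both libraries, 38.7 and 38.1%, although, as described below, that share came from different transcripts. Dll4, the Delta-like ligand of endothelium and of crypt cells (ENSMUSG00000027314.6, chromosome 2, 119325784 to 119335962, plus strand), was at 0.25 and 7.45 TPM (3.85 ± 5.09). Its share of the ligands was 3.10% in library 1 and 29.0% in library 2. Jag2, the second Jagged ligand (ENSMUSG00000002799.5, chromosome 12, 112907819 to 112929776, minus strand), was the least abundant of the 10 in both libraries, at 0.04 and 1.72 TPM (0.88 ± 1.19), from 4 and 96 counts. Jag1 was 18.6 times Dll4 by TPM in library 1 and 0.903 times in library 2. The receptors summed to 0.307 times the ligands in library 1 and 0.813 times in library 2.

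**Figure D1:**
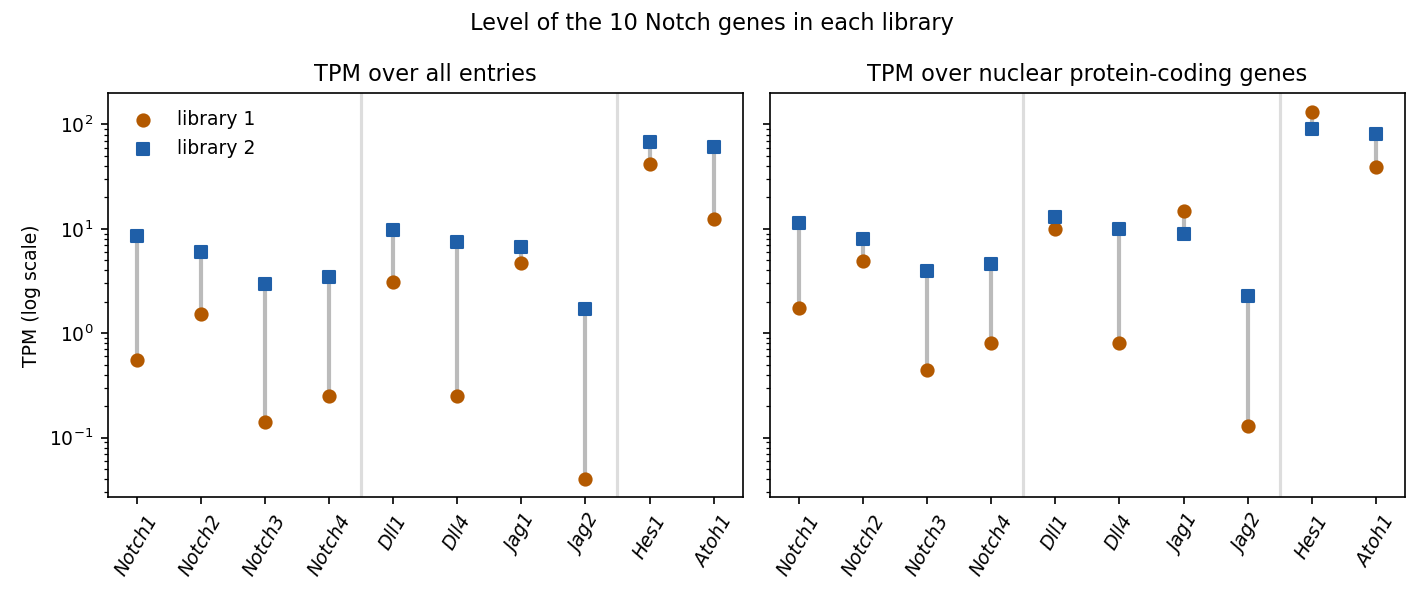
Level of each of the 10 genes in library 1 (circles) and library 2 (squares), as deposited TPM (left) and rescaled over nuclear protein-coding genes (right), both on a log axis; grey lines join the 2 libraries. Hes1 and Atoh1 stand above all receptors and ligands in both libraries, and Hes1 and Jag1 are the 2 genes that are higher in library 1 on the right.

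**Figure D2:**
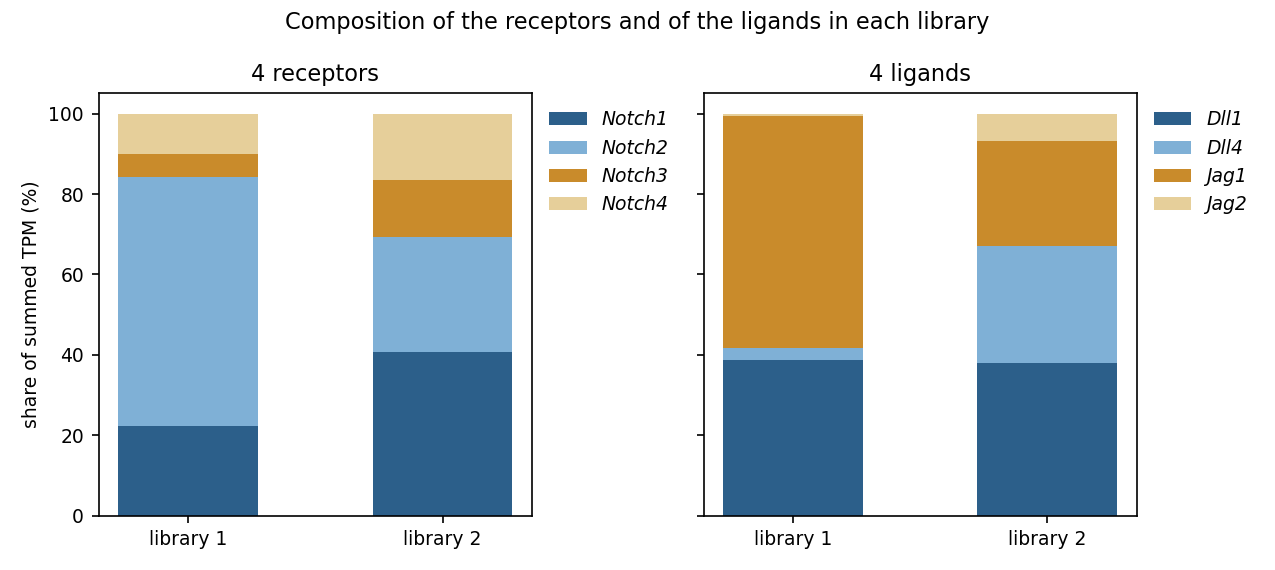
Share of the summed TPM of the 4 receptors (left) and the 4 ligands (right) taken by each gene, in percent, with 1 bar for each library. Notch2 takes 62.1% of the receptors in library 1 and 28.7% in library 2, Jag1 takes 57.7 and 26.2% of the ligands, and Dll1 keeps 38.7 and 38.1%.

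Ordered by mean nuclear TPM, the genes ran Hes1, Atoh1, Jag1, Dll1, Notch1, Notch2, Dll4, Notch4, Notch3 and Jag2. The ranges of the 2 libraries were apart between Hes1 and Atoh1 and between Atoh1 and Jag1. From Jag1 down, each gene's range overlapped that of the next in all 7 neighbouring pairs. Such an overlap does not pair the genes within a library, and does not show that their levels were alike. Within each library, by gene TPM, Dll1 stood above Notch1, Notch4 above Notch3 and Notch3 above Jag2. By TPM from coding transcripts alone, Dll1 was at 0.89 and 7.07 and Notch1 at 0.55 and 7.90. On that measure Dll1 stood above Notch1 in library 1 only. By gene TPM, 39 of the 45 possible pairs of members stood in the same order in both libraries and 5 in the opposite order. The 5 were Notch1 with Notch2, Notch2 with Dll4, and Jag1 with each of Notch1, Dll1 and Dll4, while Notch4 and Dll4 were tied in library 1.

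The transcript tables showed which RNA forms lay behind these levels. Notch2, Notch3, Jag2 and Atoh1 have a single listed transcript, which is protein-coding. In Notch1 (11 listed) and Dll4 (2 listed) the main coding transcript took 100% of the gene's TPM in library 1, and 93.1 and 100% in library 2. The authors' posterior mean percent put these shares lower, at 7.36 and 39.4% for Notch1 and 72.1 and 90.2% for Dll4. For Notch4 (12 listed) the coding transcript took 100 and 78.0%, or 12.5 and 35.0% by posterior mean, and for Hes1 (4 listed) 99.5 and 88.9%. By expected counts, coding transcripts held 100 and 99.8% of Notch1 and 100 and 98.1% of Notch4. Of the listed transcripts, 9 of 11 in Notch1 and 8 of 12 in Notch4 had 0 expected counts in both libraries. Jag1 had the same mixture in both libraries, with 87.1 and 86.8% from its coding transcript of 5612 bases and 12.9 and 13.2% from a transcript of 1463 bases annotated as a retained intron.

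Dll1 was the exception. Its coding transcript of 3581 bases made up 28.5% of the TPM of Dll1 in library 1 and 72.3% in library 2 (50.4 ± 30.9%). A transcript of 751 bases, annotated as a retained intron and so not thought to encode the ligand, made up 69.0 and 17.6% (43.3 ± 36.3%). It was at 2.16 and 1.72 TPM and rested on 29.2 and 14.2 expected counts. The TPM from coding transcripts of Dll1 was 0.89 in library 1 and 7.07 in library 2, a wider gap than the gene's 3.12 and 9.78. The locus also overlaps a long non-coding gene on the opposite strand, A930024N18Rik, with 64 and 34 counts. The sources used here do not say whether counting used the strand. The overlap is of whole gene spans, introns included, and shared exons were not looked for. Whether reads of Dll1 and of this gene were mixed is therefore not known. The same holds for Dll4 with Gm14207 (2 and 58 counts) and for Notch1 with 0610009E02Rik (9 and 20 counts).

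The libraries were then compared gene by gene, which asks how closely technical replicates of 1 tissue matched. Counts were scaled by TMM, a method that balances the bulk of genes, and a gene was called where the libraries stood at least 2-fold apart with expected counts averaging 10 or more. Of the 10 members 7 were called higher in library 2 and 0 lower, against 37.2% of all 15705 genes tested called higher and 28.3% lower (65.5% called in either direction, and 38.4% higher and 27.4% lower among the 14367 nuclear protein-coding genes). The members' median log2 ratio of library 2 over library 1 was 1.85, against 0.12 over all genes tested. This difference has no replicate check, since each side is 1 library of the same mouse.

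Jag2 had the largest ratio of the 10, with 4 counts in library 1 and 96 in library 2. Its log2 ratio was 3.99, with a 95% exact binomial interval, for counting error only, of 2.75 to 6.06. Dll4 followed with 21 and 382 counts (3.72, interval 3.12 to 4.46). These ligands were thus 15.9-fold and 13.2-fold higher in library 2. Among the receptors, Notch3 had 27 and 332 counts (3.17, interval 2.62 to 3.81) and Notch1 had 123 and 1059 counts (2.67, interval 2.41 to 2.96). Notch4 had 38 and 254 counts (2.30, interval 1.82 to 2.84). Dll1, with 103 and 368 counts (1.40, interval 1.09 to 1.74), and Atoh1, with 563 and 1680 counts (1.15, interval 1.01 to 1.29), were past 2-fold by less.

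The other 3 members were within 2-fold. Notch2 had 382 and 888 counts (log2 ratio 0.79, interval 0.61 to 0.96), Jag1 had 548 and 472 counts (-0.64, interval -0.83 to -0.46), and Hes1 had 1268 and 1162 counts (-0.56, interval -0.67 to -0.44). Jag1 and Hes1 were thus the 2 members with a ratio below 0. Notch2 passed 2-fold by the total of all Ensembl genes (1.54), the total of nuclear protein-coding genes (1.05) and the log2 ratio of TPM (1.89), and with a trend on transcript length taken off (1.52). The direction of Jag1 and Hes1 depended on the scaling. By the log2 ratio of TPM (pseudocount 0.1) Hes1 was at 0.71 and Jag1 at 0.52, both below the median of all genes on that scale, 1.18. By that ratio 53.6% of all genes were called higher and 4.81% lower, and by the total of all Ensembl genes 47.9 and 11.9%, while 8 of the 10 members were higher and 0 lower under both.

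**Figure D3:**
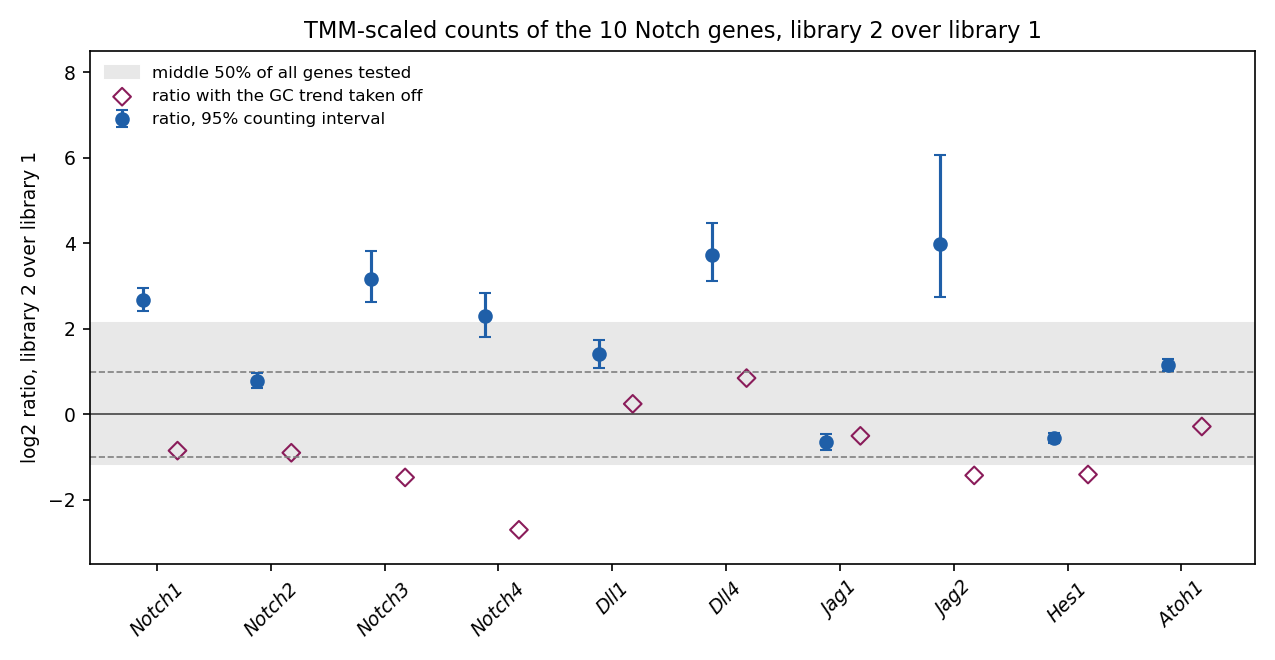
Log2 ratio of TMM-scaled counts, library 2 over library 1, for each member (filled circles, with 95% counting intervals) and after the trend with GC content was taken off (open diamonds); the grey band is the middle 50% of all genes tested and dashed lines mark 2-fold. Of the filled circles 7 lie above the upper dashed line, and 0 of the open diamonds do.

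The ratio between the libraries moved with GC content, the share of G and C bases in a gene's transcripts. Over the 15648 genes tested that had a GC value, Pearson's r was 0.84 and Spearman's rho 0.90, a description across genes of 2 libraries, which are not independent replicates. Genes of 40 to 45% GC had a median log2 ratio of -1.57 and 0.306% of them were called higher, whereas genes of 55 to 60% GC had a median of 3.52 and 93.3% were called higher. The 10 members lay between 48.8 and 61.9% GC, with a median of 54.7% against 49.9% over all genes. The order of the members followed the same slope. Jag2 (61.9%), Notch4 (60.5%) and Notch3 (59.6%) were the most GC-rich, and Jag1 (48.8%) and Hes1 (51.7%), the 2 members with ratios below 0, the least. Over the 10 members r was 0.86 and rho 0.84, given as a description of 10 genes measured in the same 2 libraries.

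With a smooth trend (lowess) on GC content taken off every gene's ratio, 0 of the 10 members were at least 2-fold higher in library 2 and 4 were lower, against 14.6% of all genes higher and 12.1% lower. The members' median became -0.87. The 4 were Notch4 (-2.70), Notch3 (-1.47), Jag2 (-1.43) and Hes1 (-1.41). Notch1 (-0.85), Notch2 (-0.90), Jag1 (-0.50) and Atoh1 (-0.28) also lay below the trend. Dll4 (0.85) and Dll1 (0.24) were the only members above the ratio of genes of like GC content. The sign of the difference between the libraries therefore changed for Notch1, Notch2, Notch3, Notch4, Jag2 and Atoh1. The GC value of Jag2 rests on a transcript of 5106 bases in the later annotation, while its effective length in the deposited tables was 3865 bases.

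**Figure D4:**
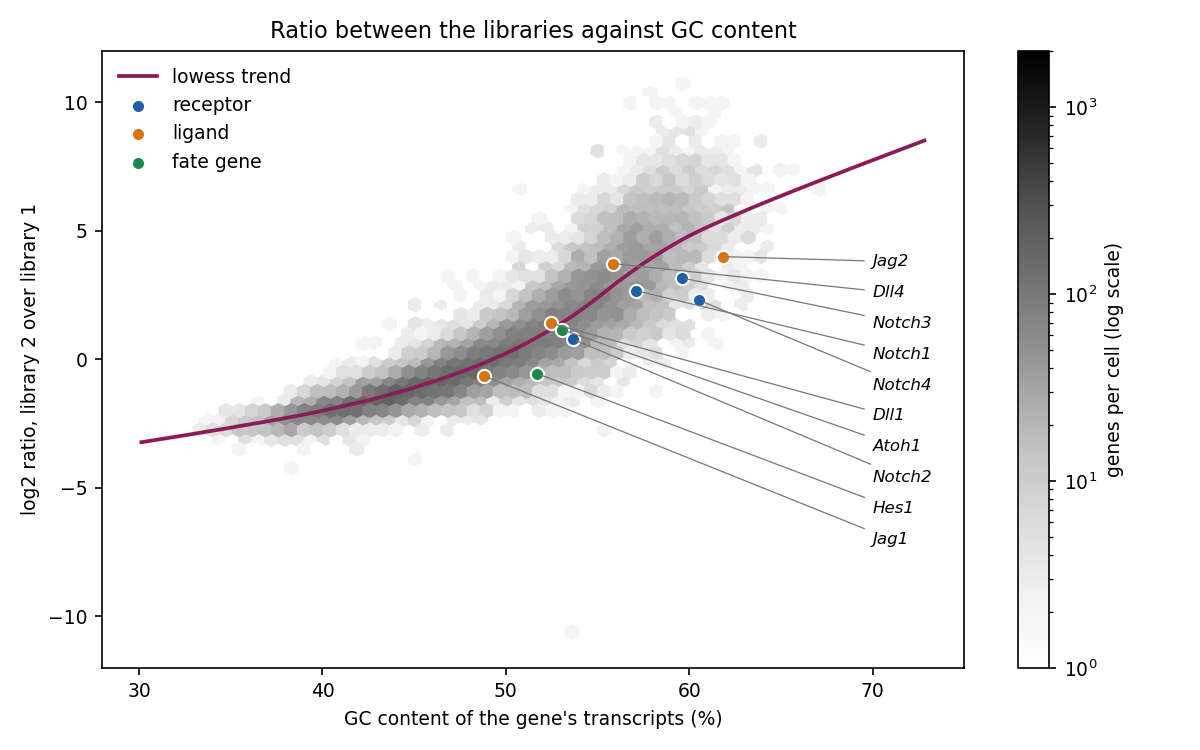
Log2 ratio of library 2 over library 1 against the GC content of each gene's transcripts in percent, for all genes tested (grey cells, darker with more genes) and the members (coloured points by role); the line is the lowess trend. The members follow the rising cloud from Jag1 at 48.8% GC to Jag2 at 61.9%, and only Dll1 and Dll4 lie above the line.

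Markers of cells known to carry these genes were counted in the same way, to be read against the 37.2% of all genes called higher and 28.3% lower. Of 6 blood endothelium genes 4 were higher in library 2 and 0 lower, and the list summed to 47.5 and 115 nuclear TPM. Of 7 smooth muscle and mural cell genes 6 were higher and 1 lower (1206 and 4191 nuclear TPM), and of 7 epithelial genes 4 were higher and 0 lower (2988 and 9981). Goblet cell genes were higher in 4 of 6 and lower in 0 (14781 and 37855), and enteroendocrine genes were higher in 4 of 5 and lower in 1 (459 and 938). Of 5 crypt stem cell genes, 4 had enough counts, and 2 were higher and 1 lower (45.9 and 60.2). Fibroblast genes had 1 of 4 higher and 1 lower (1727 and 907), and lymphocyte genes had 1 of 4 higher and 2 lower (123 and 46.3). The stem cell marker Olfm4 had 1 and 0 counts. With the GC trend taken off, 14.6% of all genes were higher and 12.1% lower. Of the markers, 1 of 6 endothelial, 4 of 7 muscle and mural and 2 of 7 epithelial genes were then higher. So were 6 of 6 goblet and 1 of 5 enteroendocrine genes, and 0 of the crypt stem cell, fibroblast and lymphocyte genes. Lower were 2 fibroblast genes, 1 epithelial gene and 1 crypt stem cell gene. Within the endothelial list Tie1 (58.1% GC) had a log2 ratio of 3.92 and Tek (47.0% GC) one of -0.64, and the part of cell makeup in the members' ratios was not tested.

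The rest of the Notch pathway was read from 49 further genes in 7 lists, of which 43 had enough counts. Of these 20 were called higher in library 2 and 11 lower, with a median log2 ratio of 0.93, or -0.07 with the GC trend taken off, when 5 were higher and 11 lower. The shares over all genes tested were 37.2% higher and 28.3% lower, or 14.6 and 12.1% with the GC trend taken off, and the 46.5% of pathway genes called higher is read against these. The genes lower in library 2 were largely others once the GC trend was taken off: Hey2 (-1.08) and Insm1 (-7.12) were lower both ways, whereas Rbpj (-0.01), Adam10 (-0.24), Mib1 (0.12), Itch (0.12), Maml2 (-0.43), Dtx3l (-0.48) and Neurod1 (-0.39) were then within 2-fold. Of the genes named below as higher, Mib2 (1.15), Hes6 (1.66) and Spdef (1.02) stayed at least 2-fold higher with the trend taken off. Furin (0.04), Aph1a (-0.56), Rfng (0.89), Lfng (-0.13), Mfng (0.49) and Dlk1 (0.88) were then within 2-fold. Nrarp (-2.27), Gfi1 (-2.87) and Dner (-1.98), within 2-fold before, were then lower. The ratios in the next paragraphs are those before the GC trend was taken off.

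The machinery that cuts the receptor was abundant. The 10 cleavage genes summed to 162 and 597 TPM, with 5 higher, 3 lower and 2 within 2-fold. Adam10, the protease of the first cut after ligand binding, was at 71.84 and 43.38 TPM (log2 ratio -1.91), and Aph1a, a γ-secretase subunit, was at 16.01 and 135.28 TPM (1.40). Furin, which cuts the receptor on its way to the surface, had 57 and 1934 counts (4.64).

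In the nucleus, 2 of 7 genes were higher, 2 lower and 3 within 2-fold, and the list summed to 58.8 and 127 TPM. Rbpj, which brings the receptor's intracellular part to DNA, was at 20.51 and 17.56 TPM (19.0 ± 2.09), above each of the 4 receptors in both libraries, and its log2 ratio was -1.39. Snw1, a cofactor of RBPJ, was at 28.79 and 46.5 TPM (-0.48). Maml2, a coactivator of the Mastermind family, had 195 and 119 counts (-1.14).

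Of 5 genes that glycosylate the receptor, 3 were higher and 0 lower (18.4 and 66.8 TPM summed). The 3 were the Fringe enzymes, which tune the choice between Delta-like and Jagged ligands. Rfng had 8 and 538 counts (5.56), Lfng 16 and 407 (4.20) and Mfng 2 and 60 (log2 ratio 4.17, interval 2.56 to 7.56). Pofut1, which adds the O-fucose that Fringe extends, was at 6.63 and 17.92 TPM and within 2-fold (0.31). Among 7 genes of ligand and receptor endocytosis 4 were higher and 2 lower (92.3 and 157 TPM). Mib1 and Itch, ubiquitin ligases that act on ligand and receptor, were lower at log2 ratios of -1.63 and -1.51, and Mib2, a relative of Mib1, was higher with 9 and 800 counts (5.97). Numb, an inhibitor of the receptor, was at 11.46 and 48.57 TPM and within 2-fold (0.38).

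Other targets, their relatives and fate factors were mixed. Of 11 further genes listed as targets or relatives of targets 8 had enough counts, and 4 were higher, 2 lower and 2 within 2-fold (33.3 and 111 TPM). Hes6 alone was at 0.29 and 67.45 TPM, so this sum is not a measure of Notch output. Hes6, a relative of Hes1, had 8 and 1151 counts (6.65), and Dtx3l, a Deltex relative, was at 24.92 and 22.02 TPM (-1.36). Nrarp, a feedback inhibitor that Notch switches on, was at 4.68 and 9.67 TPM and within 2-fold (-0.12). Hey2, a Hes-related repressor of vessels, had 97 and 33 counts (-1.97). Of 5 secretory fate factors 4 had enough counts, and 1 was higher and 2 lower. Spdef, which acts after Atoh1 in goblet cells, had 23 and 1458 counts (5.53), and Gfi1, a repressor in the same lineage, had 106 and 241 (0.75). Neurod1 and Insm1, factors of enteroendocrine cells, were lower at -1.78 and -1.66. Of 4 other ligand-like genes 2 had enough counts: Dlk1 had 1 and 62 counts (4.95, interval 2.99 to 10.9) and Dner 140 and 95 (-0.99). Dlk2 had 0 counts in both libraries and Dll3 had 1 and 2.

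**Figure D5:**
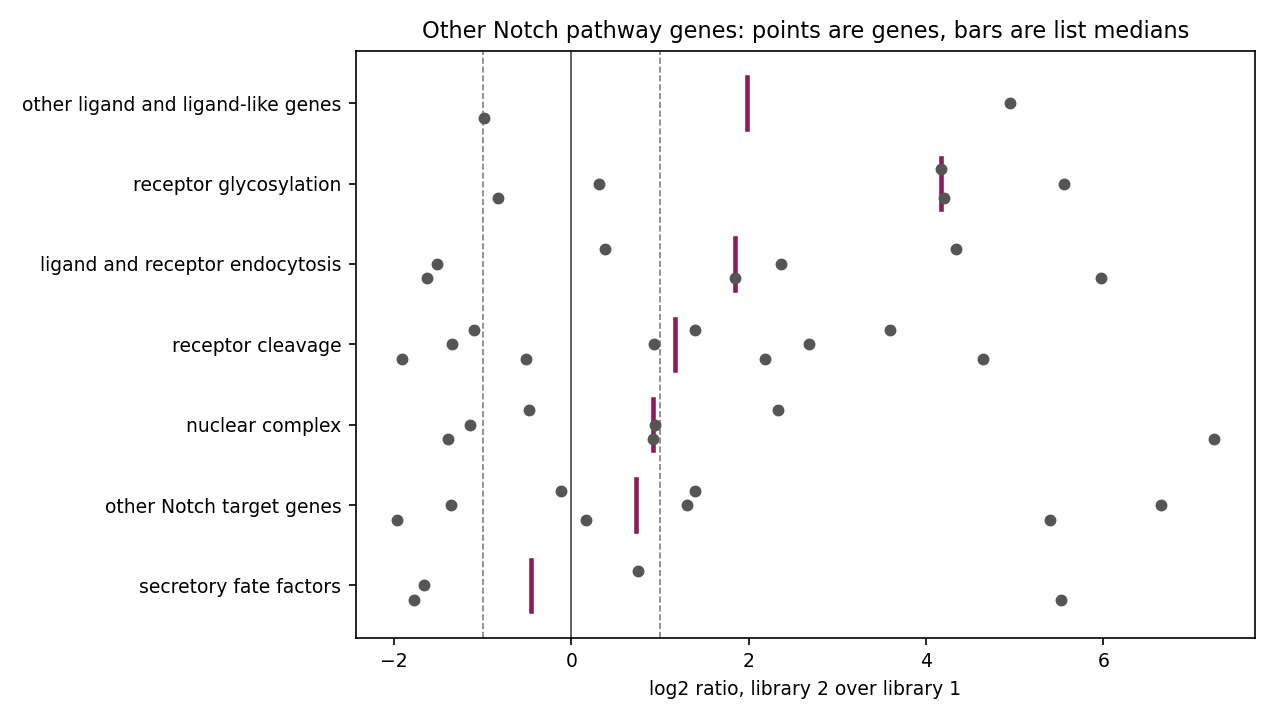
Log2 ratio of library 2 over library 1 for the 43 other pathway genes with enough counts, by list; each point is 1 gene, vertical bars are list medians and dashed lines mark 2-fold. Genes lie on both sides of 0 in every list, with medians from -0.45 for the secretory fate factors to 4.17 for receptor glycosylation.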

How the data were processed

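The deposited tables, 1 of genes and 1 of transcripts for each library, were made on mm10 with GENCODE M4, as the accompanying text files state; the aligner, quantifier and use of strand were not given in the sources used here. Per the file headers, they hold the authors' expected counts (estimated counts), the authors' TPM and FPKM values with a posterior mean TPM, and, for transcripts, the authors' percent of each gene. Of 69691 entries, only the 43346 Ensembl genes entered. Gene symbols were looked up by Ensembl ID, and positions, types and transcript sequences from GENCODE M21 on GRCm38, the same assembly.

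Members, lists and tests were chosen with earlier results of these data known. All 10 members are named; of each other list, up to 4 genes, those at least 2-fold apart or most abundant, while Dlk2, Dll3 and the single marker and overlapping genes fall outside that rule and were named after their values were seen. Some single pathway genes are counted in their lists and not reported here by name. Expected counts were rounded. Genes averaging 10 or more expected counts were tested, scaled by TMM (edgeR 4.0.16, R 4.3.3; library 2 over library 1 was 1.35), with a prior count of 0.5. Intervals are exact binomial at 95% (scipy 1.17.1, Python 3.11.15). GC content was weighted by TPM, and 99.6% of the genes tested had a value; trends were lowess fits with a fraction of 0.2 (statsmodels 0.14.6). The ratio step was tested on simulated counts, drawn from a shared profile with few genes changed, equally up and down, and no GC trend. In the real libraries 65.5% of the genes tested were called and ratios moved with GC content. The simulation therefore does not show how well TMM scales these libraries. The alternatives were other scalings (DESeq2 1.42.0 size factors, totals, TPM), filters, a prior count of 5, GC and length trends, an exact binomial test, posterior means and FPKM.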

Additional observations from a re-analysis of the deposited data

How the results depend on the processing

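No paired analysis was possible because there is 1 group of 2 libraries. With the GC trend taken off, 0 members were at least 2-fold higher in library 2 and 4 lower, in place of 7 and 0, and 5 pathway genes were higher in place of 20. Ratios then changed sign for Notch1 (-0.85), Notch2 (-0.90), Notch3 (-1.47), Notch4 (-2.70), Jag2 (-1.43) and Atoh1 (-0.28). With the length trend taken off 6 members were higher and 1 lower: Dll1 (0.89) and Atoh1 (0.61) lost the call, Notch2 (1.52) gained it and Hes1 was lower at -1.64. By the total of Ensembl genes 3 pathway genes were lower in place of 11, and by the ratio of TPM 0. DESeq2 size factors, both count filters, a prior count of 5 and a binomial test at 0.05 gave 7 members higher and 0 lower. Over nuclear protein-coding genes the mean level was 11.5 TPM for Dll1, 11.9 for Jag1 and 111 for Hes1. By posterior mean TPM it was 13.1 for Notch1 and 4.45 for Notch4; mean shares became 61.1% for Notch1, 15.1% for Notch2 and 19.1% for Notch4 of the receptors and 40.3% for Dll1 of the ligands. By expected counts Notch4 took 8.35% of the receptors and Dll1 21.6% of the ligands. By posterior mean percent the coding transcript took 23.4% of Notch1, 23.8% of Notch4 and 85.5% of Jag1, whose retained intron took 14.5%. The GC and length trends were fitted to the same 2 libraries, and by construction set each ratio against genes of like GC content or length. The cause of the differences was not tested. With 4 and 21 counts in library 1, Jag2 and Dll4 are the values that depth limits most.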

Other observations

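Insm1, a zinc-finger factor of enteroendocrine cells, stood apart from other GC-rich pathway genes. It had 153 counts in library 1 and 65 in library 2, a log2 ratio of -1.66 (interval -2.11 to -1.24), although its transcript is 62.0% GC and genes of 60 to 65% GC had a median ratio of 5.30. With the GC trend taken off it was at -7.12, which put it at place 10 from the lowest of 15648 genes. The last 500 bases of its transcript were 33.4% GC. For Hes6 (log2 ratio 6.65) and Spdef (5.53), which have 60.5 and 59.3% GC over the whole transcript, the last 500 bases were 54.3 and 55.8% GC. Gfi1 (0.75) had 57.3% GC over the whole transcript and 41.5% in the last 500 bases. Numbl went the other way, with 61.2% GC overall and 56.6% in the last 500 bases. Its log2 ratio was 2.37, or -2.83 with the GC trend taken off. Whether the end of the transcript had a part in these ratios was not tested. These genes and the window of 500 bases were chosen after their values were seen.

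Among the members the same window was less GC-rich than the whole transcript in all 10, from 36.2% in Atoh1 to 57.0% in Jag2. Notch2, with 53.6% GC overall and 36.8% at its end, had a ratio of 0.79, and Notch3, with 59.6 and 51.6%, one of 3.17. Members with like ends could differ, however. Dll4, Notch1 and Hes1 had 42.8, 42.6 and 42.9% in the last 500 bases and ratios of 3.72, 2.67 and -0.56. Over all 15648 genes the ratio followed the GC content of the last 500 bases with a Spearman's rho of 0.82, against 0.90 for the whole transcript, and over the 10 members with one of 0.67, against 0.84.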
